A study of Mus musculus with 33 samples.

Results

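The genes examined were 7, chosen by name as targets of serum response factor (SRF): Srf itself, the early growth response genes Egr1, Egr2 and Egr3, the immediate early response genes Ier2 and Ier3, and Mcl1. They make up 7 of 21631 protein-coding genes on the autosomes and X. Every peak whose summit lay inside the annotated gene or within 10 kb of either end was collected from 15 lists of chromatin immunoprecipitation followed by sequencing (ChIP-seq). The cells were MEFs, fibroblasts cultured from mouse embryos, on a 129Sv.BALB/c background. HSF1-/- MEFs, which lack heat shock factor 1, and wild type MEFs were each taken unheated (before heat shock) and 12 or 60 min into heat shock, with 1 antibody from Cell Signaling (CS) and 1 given by the Morimoto laboratory (MM). Neither label names a target, and the wild type peak files call the experiment an Hsf1 ChIP-seq. Wild type MEFs were also taken at the same times with an SRF antibody. A list was used here from 15 of 33 samples: 6 from HSF1-/- MEFs, 6 from wild type MEFs with CS and MM, and 3 with SRF. Peak lists do not measure expression and the nascent RNA (PRO-seq) libraries of the series were not analysed here, so the fibroblast label and the loss of Hsf1 were not checked against transcript levels.

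SRF is a MADS-box factor that binds the CArG box, a run of A and T bases between CC and GG that forms the core of the serum response element. It works with ETS-family ternary complex factors (Elk1, Elk3, Elk4), which carry growth factor signals to immediate early genes, or with the myocardin-related factors, which carry actin signals to cytoskeletal genes. EGR1, EGR2 and EGR3 are zinc-finger transcription factors induced within minutes of a signal. IER2 and IER3 are small proteins of the same early wave, and MCL1 is a short-lived anti-apoptotic member of the BCL2 family. HSF1 binds arrays of the heat shock element and drives chaperone genes on heat shock.

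There was 1 list for each genotype, antibody and time, so no value below has a replicate error and no test compared conditions. Each peak has a height given by the authors, which is the number of tags in the peak for CS and MM and the pileup of tags at the summit for SRF. Heights are given with 95% Poisson intervals, which cover counting error only, and are ranked only within their own list. The HSF1-/- CS and MM libraries kept 5.18 to 15.6 M tags (M stands for mega), against 14.0 to 26.3 M in the wild type CS and MM libraries. The SRF libraries were far shallower, at 0.751, 1.55 and 0.949 M distinct tags in order of time, after 85%, 80% and 73% of tags had been set aside as redundant. The SRF reads were also shorter before heat shock (19 bp) than at the later times (31 bp). As a check of the CS and MM lists, peaks were counted at the chaperone genes Hspa8, Hsp90ab1, Hspa1b, Hsph1 and Dnajb1. Their knockout peaks within 10 kb held at most 8 tags. At 60 min in wild type MEFs all 5 had peaks with both antibodies, the tallest for each gene and antibody with 700 to 1818 tags. Knockout peaks were called without a control library, so these tag counts are not on one scale.

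Promoter sequences from RefSeq (GRCm38.p6, the primary assembly of mm10) were matched for 4 of the 7 genes, Srf, Egr2, Ier3 and Mcl1, in 8 entries of which 5 belong to Egr2. The 5 stretches printed here run from 150 bases before the start site over its first 2 bases, on the strand of the gene, and show where a CArG box stands relative to the start and to the peaks described further on. Capitals mark a CArG box, or a CArG-like sequence with 1 C or G among its inner A and T bases.
Srf (chr17:46556161-46556312, minus strand): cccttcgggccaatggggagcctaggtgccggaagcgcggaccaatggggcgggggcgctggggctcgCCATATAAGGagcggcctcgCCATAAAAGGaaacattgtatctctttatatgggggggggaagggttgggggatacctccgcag
Egr2, start site 67537566 (chr10:67537416-67537567, plus strand): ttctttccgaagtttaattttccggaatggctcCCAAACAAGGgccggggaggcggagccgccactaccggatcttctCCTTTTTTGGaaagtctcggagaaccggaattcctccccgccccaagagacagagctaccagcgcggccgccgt
Egr2, start site 67537869 (chr10:67537719-67537870, plus strand): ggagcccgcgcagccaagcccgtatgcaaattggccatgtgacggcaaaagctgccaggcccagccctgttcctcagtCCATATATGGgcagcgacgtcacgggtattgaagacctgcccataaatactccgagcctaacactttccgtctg
Ier3 (chr17:35821563-35821714, plus strand): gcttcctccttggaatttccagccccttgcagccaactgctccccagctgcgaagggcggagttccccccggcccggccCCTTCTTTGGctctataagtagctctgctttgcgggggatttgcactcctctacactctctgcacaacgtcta
Mcl1 (chr3:95658571-95658722, plus strand): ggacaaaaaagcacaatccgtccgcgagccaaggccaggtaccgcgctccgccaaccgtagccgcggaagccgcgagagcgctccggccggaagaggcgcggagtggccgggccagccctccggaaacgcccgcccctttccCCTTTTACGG
Srf held a pair of boxes, CCATATAAGG at bases -82 to -73 and CCATAAAAGG at -62 to -53, counted with the first transcribed base as 1. Egr2 held CCTTTTTTGG at -72 to -63 of the start at 67537566, with the CArG-like CCAAACAAGG before it, and CCATATATGG at -72 to -63 of the start at 67537869. That last box is shared with the starts at 67537870 and 67537930, while the entry at 67535499 held no CArG sequence of either form. Ier3 and Mcl1 held only the CArG-like form, CCTTCTTTGG at -71 to -62 in Ier3 and CCTTTTACGG at -8 to 2 in Mcl1, where it covers the start site itself. A second CArG-like match in Ier3, CCAATCAAGG at -175 to -166, lies before the stretch printed. Of all 32851 mouse promoters of the same length, from 250 bases before to 50 after the start, 1.63% held a strict CArG box on either strand and 8.5% the CArG-like form. The CArG-like search was added after the strict one had found no box in Ier3 or Mcl1.

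Other motifs were searched in the same windows on both strands. CCGGAA, the core bound by ETS factors, occurred in Srf at -122, in Mcl1 at -63 and -30, and in the Egr2 promoter at 67537566 at -129 and -48 and on the opposite strand at -131, and 14.9% of all promoters hold it. GCGNGGGCG, the site of EGR proteins, occurred once, as GCGGGGGCG in Srf at -101, against 5.55% of all promoters. Heat shock element pairs were searched as GAANNTTC and TTCNNGAA, held by 7.86% and 8.52% of promoters. The single match was TTCCGGAA in Egr2 at -131, which overlaps the CCGGAA matches at -131 and -129. No match says only that these letters are not in the window.

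Within 10 kb of the 7 genes lay 30 peaks, of which 14 were in the HSF1-/- lists, 9 in the wild type CS and MM lists and 7 in the SRF lists. Mcl1 had 9 of them, Ier3 8, Egr1 6, Egr3 and Ier2 3 each, and Egr2 a single one. Srf, whose promoter carries the pair of CArG boxes printed above, had none in any of the 15 lists. By kind of peak, Egr1 had SRF and knockout peaks, Egr3 SRF and a wild type MM peak, and Ier3 SRF and 7 knockout peaks. Mcl1 had peaks of every kind, Ier2 wild type CS and MM peaks alone, and Egr2 a knockout peak alone. Of all genes, 48% had a knockout peak at some time, 20.2% a wild type CS or MM peak and 0.458% an SRF peak.

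**Figure D1:**
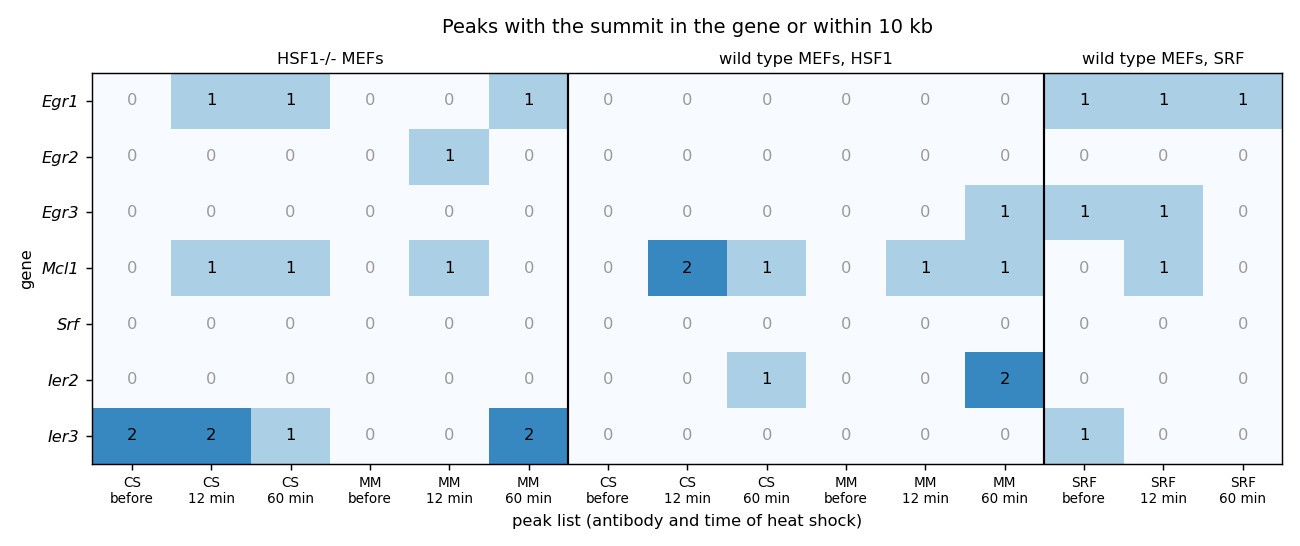
Number of peaks with the summit inside each of the 7 genes or within 10 kb, by list, with the 6 HSF1-/- lists at the left, the 6 wild type CS and MM lists in the middle and the 3 SRF lists at the right. Srf has no peak, Egr1 alone has an SRF peak at all 3 times, and no gene has a wild type CS or MM peak before heat shock.

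SRF was found at 4 of the 7 genes at some time, Egr1, Egr3, Ier3 and Mcl1, against 0.458% of all protein-coding genes (99 genes). Before heat shock the genes were Egr1, Egr3 and Ier3, against 0.194% of all genes, but none of their peaks at that time passed a q-value of 0.05. After 12 min they were Egr1, Egr3 and Mcl1, against 0.254%. After 60 min it was Egr1 alone, against 0.0878%. The peaks of these genes at 12 and 60 min passed that limit. The 7 genes were picked as SRF targets with earlier results of these lists known, so these counts describe them and are not independent evidence. The 60 min list was the shortest, with 18 peaks against 64 before heat shock and 68 at 12 min. Its library held fewer distinct tags (0.949 M) than that of 12 min (1.55 M) but more than that before heat shock (0.751 M), and the part of depth in the peaks gained or lost was not tested.

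Egr1 (chromosome 18, 34861207 to 34864956), which encodes the best-studied zinc-finger factor of the family, had an SRF peak with a pileup of 3 before heat shock (interval 0.619 to 8.77), 5 at 12 min (1.62 to 11.7) and 4 at 60 min (1.09 to 10.2). The 3 intervals overlap. The summits lay 371, 346 and 380 bp below the lower-coordinate end of the gene. They were 25 bp apart between the list before heat shock and that of 12 min, 34 bp between 12 and 60 min, and 9 bp between the first and the last. The peaks therefore named one place 3 times, overlapping by 96 to 202 bp. Only the peaks of 12 and 60 min passed a q-value of 0.05: the authors' -log10 q was 0.84, 4.69 and 1.94. By height the Egr1 peak shared ranks 24 to 62 of 64 before heat shock, 13 to 23 of 68 at 12 min and 5 to 11 of 18 at 60 min, because many peaks of these lists have the same small pileup. Zswim6 was the one other protein-coding gene with an SRF peak at every time, so 2 genes, or 0.00925% of all, had one.

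Egr3 (chromosome 14, 70077317 to 70082613), a family member induced alongside Egr1, had an SRF peak with a pileup of 3 before heat shock (0.619 to 8.77) and 6 at 12 min (2.20 to 13.1), and none at 60 min. Its summits stood 2347 and 2269 bp below the lower-coordinate end, 78 bp from each other. At 12 min it shared ranks 7 to 12 of 68 by height and stood at rank 2 by the authors' fold enrichment. That was the tallest of the SRF peaks of 12 min at the 7 genes, with a -log10 q of 6.71, while the peak before heat shock had 0.86. Egr1 and Egr3 were thus the members with SRF at more than 1 time, as were 15 protein-coding genes in all (0.0693%). Egr2 (chromosome 10, 67534469 to 67542188), which encodes a factor known for its part in myelination, had no SRF peak in any list. Of all genes, 0.458% had one at some time. Strict CArG boxes stand before 4 of the 5 annotated starts of Egr2.

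Ier3 (chromosome 17, 35821713 to 35822911), a stress-inducible survival gene, had an SRF peak only before heat shock. Its pileup was 3 (0.619 to 8.77) and its -log10 q 0.86. The summit lay 8372 bp below the gene, far from the CArG-like match at -71, and Flot1 was the next gene at 9979 bp. This peak is the one that lies nearest to the 10 kb limit among the 30. The nearest peaks left out were small ones of the HSF1-/- CS lists, 12781 bp from Mcl1 before heat shock and 13268 bp from Ier3 at 12 min. Ier2 (chromosome 8, 84661331 to 84662852), an early response gene, and Srf (chromosome 17, 46546838 to 46558267) had no SRF peak.

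Mcl1 (chromosome 3, 95656944 to 95663179) had an SRF peak only at 12 min. It had a pileup of 4 (1.09 to 10.2), shared ranks 24 to 38 of 68 and a -log10 q of 3.04. Its summit was 13 bp upstream of the RefSeq start at 95658721, and 5 bp from the CArG-like sequence CCTTTTACGG printed in the Mcl1 promoter, which lies inside the peak. The annotated gene begins further out, so the peak counts as inside it. Among the 4 genes with SRF, Mcl1 was the one whose SRF summit stood at a start site covered by the promoter sequences. Ier3 was also matched, and its SRF summit was 8372 bp from the start.

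Of the 7 SRF peaks at these genes, 5 overlapped an SRF peak of another time by at least 1 bp (71.4%, exact binomial interval 29.0% to 96.3%). Of all 150 SRF peaks, these 7 included, 36 did (24%, interval 17.4% to 31.6%). The intervals treat peaks as independent, which they are not, since a kept peak always overlaps another kept peak. The 5 kept at these genes were the 3 peaks of Egr1 and both of Egr3, so they represent 2 places. All 5 also had a summit within 100 bp of one at another time. When 50% of both peaks had to overlap, 2 were kept, those of Egr3, since the Egr1 peak of 12 min was 552 bp long against 202 and 227 bp at the other times.

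**Figure D2:**
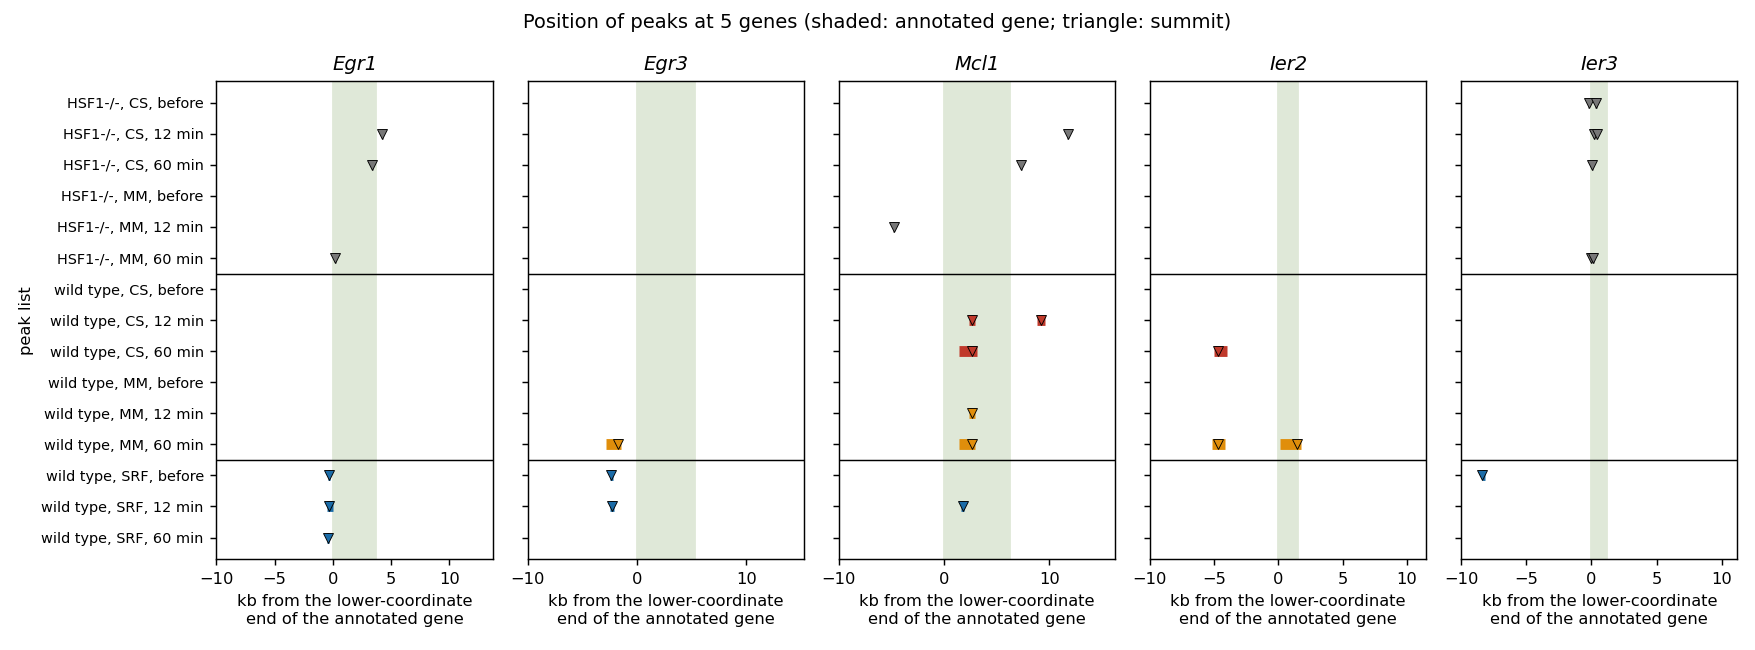
Position of every peak at Egr1, Egr3, Mcl1, Ier2 and Ier3, in kb from the lower-coordinate end of the annotated gene (shaded), with 1 row for each list, bars for the extent of peaks and triangles for summits. The SRF summits of Egr1 stand above one another at 346 to 380 bp below the gene. The wild type CS and MM summits of the shared regions of Mcl1 at 12 and 60 min stand inside the gene, beside its SRF summit of 12 min. A second wild type CS summit of 12 min and the knockout summits of Mcl1 stand outside the gene.

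CS and MM peaks of HSF1-/- MEFs come from cells without HSF1, and they were called without a control library. What the antibodies recovered there cannot be told apart from background present without an antibody. Before heat shock 1 of the 7 genes, Ier3, had such a peak with either antibody, against 26.4% of all genes. At 12 min 4 had one, Egr1, Egr2, Ier3 and Mcl1, against 26.5%, and at 60 min 3 had one, Egr1, Ier3 and Mcl1, against 24.2%. With CS alone the counts were 1, 3 and 3, against 21.6%, 15.9% and 18.1% of all genes. With MM alone they were 0, 2 and 2, against 9.92%, 16.8% and 11.4%. Over all times, 4 of the 7 genes and 48% of all genes had a knockout peak. In a set of 7 genes 1 is 14.3%, and nothing is read from these shares.

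The 14 knockout peaks held few tags, 4 to 10 with a median of 5.5, and were 62 to 152 bp long. The 5 knockout lists they come from have medians of 4 to 6 tags, which are also their lowest heights, and highest peaks of 5024 to 9654 tags. Within these lists the peaks ranged from the top 14.3% by height, for Mcl1 with CS at 60 min, down to the lowest height called. Egr1 had 6 tags with CS at 12 min, 471 bp beyond the higher-coordinate end, 5 with CS at 60 min inside the gene, and 5 with MM at 60 min, 195 bp inside its lower-coordinate end. These 3 summits lay at 3 different places. The lone Egr2 peak, with MM at 12 min, held 6 tags at 7171 bp and was closer to Ado, 404 bp away. Mcl1 had 4 tags with CS and 8 with MM at 12 min, 5499 and 4796 bp from the gene on opposite sides, and 10 tags with CS at 60 min, 1099 bp from it.

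Ier3 had 7 of the 14 knockout peaks, all within 1 kb of this short gene of 1199 bp. With CS it had 2 peaks of 7 tags each before heat shock, peaks of 4 and 5 tags at 12 min, and 1 of 5 tags at 60 min. With MM it had none before heat shock or at 12 min, and 7 and 5 tags at 60 min. The CS peaks lay 212 bp before the start and 351 bp after it before heat shock, 229 and 410 bp after it at 12 min, and 77 bp after it at 60 min. The MM summits of 60 min were 21 bp before the start and 137 bp after it. Ier3 was the only one of the 7 genes with a knockout peak at all 3 times, against 7.83% of all genes. It was also the only one where knockout CS and MM peaks overlapped, at 60 min (chromosome 17, 35821642 to 35821892). Such an overlap was found at 2.37%, 2.01% and 2.55% of all genes in order of time, and at 3.3% at any time. In all, 602 protein-coding genes (2.78%) had at least as many knockout peaks as Ier3.

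None of the 16 wild type peaks at the 7 genes, 9 with CS or MM and 7 with SRF, overlapped a knockout peak of any time. Over all wild type lists 480 of 13874 peaks (3.46%) overlapped a knockout peak of the same time and 1244 (8.97%) one of any time. Within 500 bp at the same time there was 1 of the 16, the SRF peak of Egr1 at 60 min, against 4.79% of all peaks.

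In wild type MEFs before heat shock, none of the 7 genes had a CS or an MM peak, against 0.712% and 2.03% of all genes. At 12 min Mcl1 had peaks with both, against 6.41% of genes with CS and 7.23% with MM. At 60 min Mcl1 and Ier2 had CS peaks (13.9% of genes) and Mcl1, Ier2 and Egr3 had MM peaks (15.4%). With either antibody the counts were 0, 1 and 3 genes in order of time, against 2.2%, 8.27% and 17.9% of all genes, and 3 at any time, against 20.2%. Egr1, Egr2, Ier3 and Srf had no wild type CS or MM peak. Places where CS and MM peaks of the same time overlapped by at least 1 bp are called shared regions here. Before heat shock none of the 7 genes had one, against 0.532% of genes. At 12 min it was Mcl1, against 5.33%, and at 60 min it was Mcl1 and Ier2, against 11.2%. With 7 genes, 1 or 2 are few to set against such shares.

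**Figure D3:**
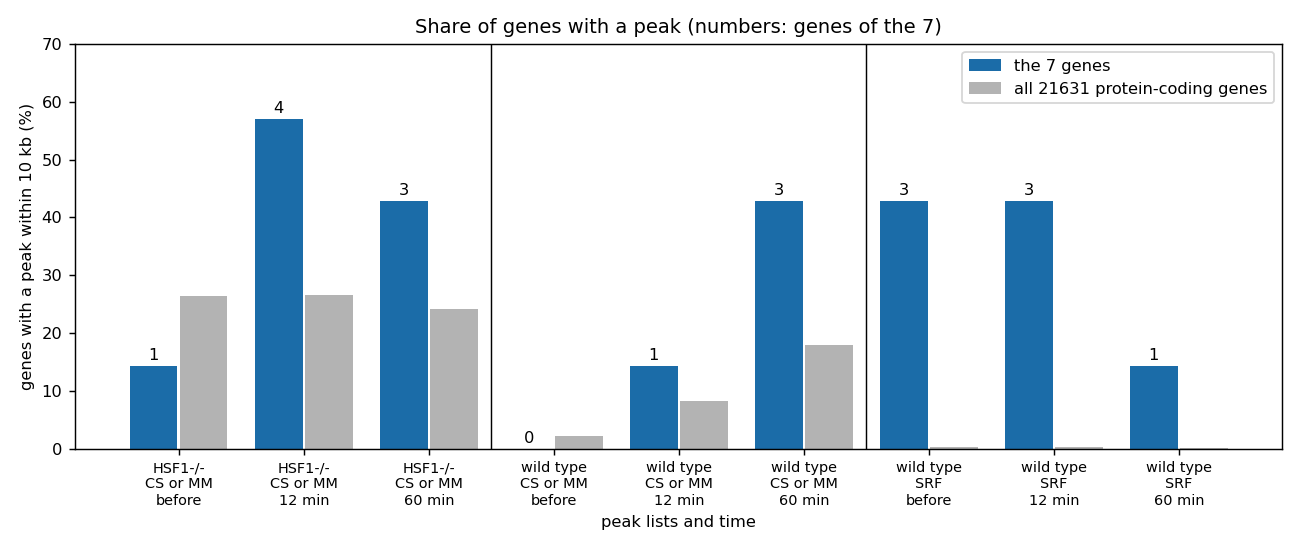
Share of genes with a peak within 10 kb, in percent, for the 7 genes (blue, with their number above the bar) and for all 21631 protein-coding genes (grey), for CS or MM in HSF1-/- MEFs, CS or MM in wild type MEFs, and SRF, at each time. The bars of the 7 genes stand at 42.9% for SRF before heat shock and at 12 min, where the bars of all genes are at 0.194% and 0.254%. None of the SRF peaks of the 7 genes before heat shock passed a q-value of 0.05.

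At Mcl1 the wild type CS peak of 12 min held 39 tags (27.7 to 53.3) and the MM peak 22 tags (13.8 to 33.3), and together they covered chromosome 3, 95659298 to 95659918. Both were among the lower peaks of their lists, at ranks 1484 to 1509 of 1781 and 1542 to 1591 of 1927, and the authors' false discovery rates were 14.8% and 43.7%. At 60 min the CS peak held 130 tags (109 to 154) and the MM peak 90 tags (72.4 to 111), at ranks 1059 to 1063 of 4773 and 748 to 761 of 4614, with false discovery rates of 0.45% and 0.48%. The summits kept their place: 832 (CS) and 886 bp (MM) downstream of the start at 12 min, and 872 (CS) and 845 bp (MM) at 60 min. Mcl1 was the only one of the 7 genes with a shared region at both times, as were 4.75% of all genes. A second CS peak of 12 min, with 43 tags and a false discovery rate of 3.91%, lay 2963 bp beyond the higher-coordinate end and had no MM peak.

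The SRF peak of Mcl1 and the CS and MM peaks of the same 12 min did not overlap. Gaps of 497 bp (CS) and 510 bp (MM) separated them, and the summits were 845 and 899 bp apart. The shared region of 60 min, 1731 bp long (95658325 to 95660055) against 621 bp at 12 min, reached over the start site, the CArG-like sequence and all 209 bp of the place where the SRF peak of 12 min had been called. No SRF peak was called there at 60 min. The estimated fragment lengths were 161 bp (CS) and 114 bp (MM) at 60 min against 128 and 107 bp at 12 min, and their part in the longer region was not tested.

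Ier2 had wild type peaks only at 60 min. The CS peak held 100 tags (81.4 to 122) and the MM peak 68 tags (52.8 to 86.2), in a shared region on chromosome 8, 84656193 to 84657330, whose summit lay 4702 bp below the lower-coordinate end. Their -log10 p, 21.2 and 18.8, were the highest among the 9 wild type CS and MM peaks at these genes, and their false discovery rates were 0.55% and 0.27%. Ier2 was the nearest protein-coding gene, and the next, Nacc1, lay 13839 bp from the CS summit. A longer MM peak of 1673 bp lay over the gene itself, 58 bp from its higher-coordinate end. It held 103 tags (84.1 to 125), the largest number with MM among the 7 genes, but had the lowest fold enrichment of all 4614 peaks in its list, a false discovery rate of 13.8% and no CS peak.

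Egr3 had 1 wild type peak within 10 kb, with MM at 60 min. It held 54 tags (40.6 to 70.5), had a false discovery rate of 9.11%, and stood at rank 1390 to 1425 of 4614 by height and 4582 by fold enrichment, with no CS peak beside it. The peak was 1370 bp long and covered all of the SRF peaks of both earlier times, 200 bp of the one before heat shock and 331 bp of that of 12 min. Its own summit was 604 and 526 bp from theirs. Like the MM peak over Ier2, it ranked far higher by tags than by fold enrichment, and neither was matched by CS. This was not limited to unmatched peaks. The Mcl1 peaks of 60 min ranked 1059 of 4773 (CS) and 748 of 4614 (MM) by tags, but 3817 and 3504 by fold enrichment. Those of the shared region of Ier2 ranked 1475 and 1061 by tags and 1659 and 1144 by fold enrichment.

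**Figure D4:**
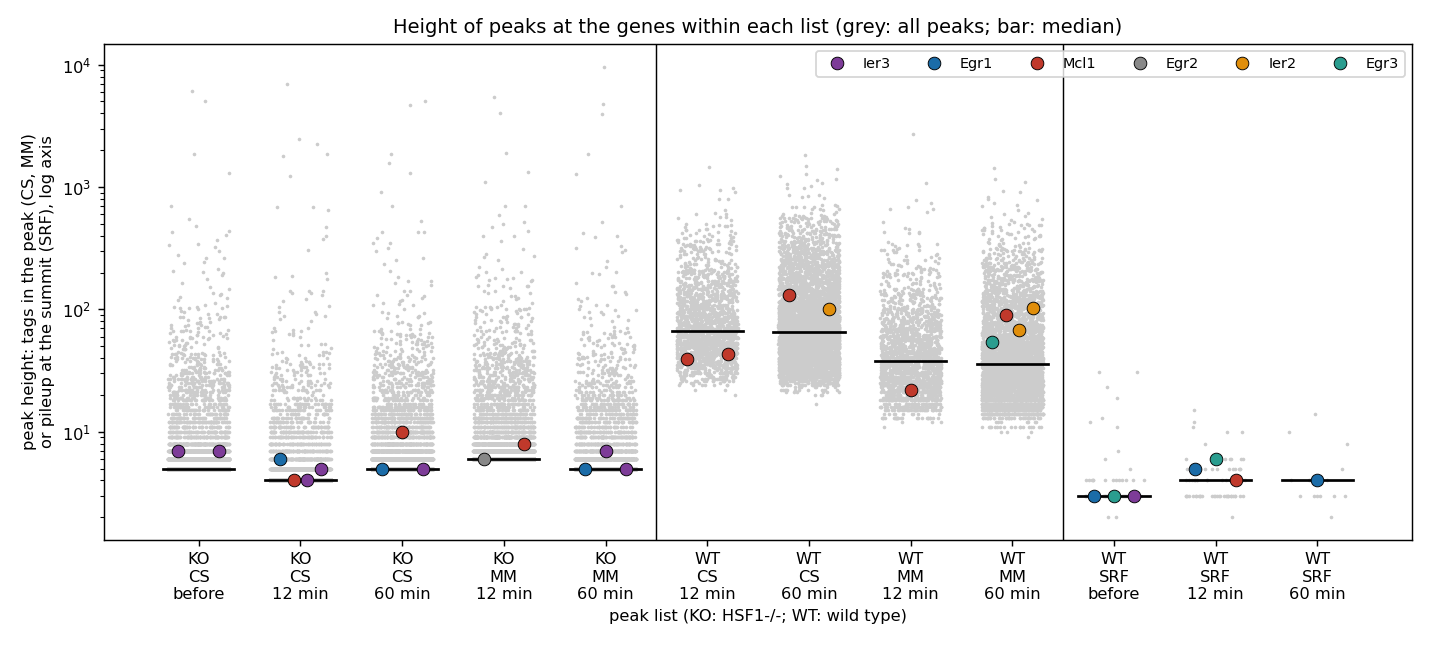
Height of every peak in the 12 lists that have a peak at one of the 7 genes (log axis), as tags in the peak for CS and MM and as pileup for SRF, with all peaks in grey, the peaks at the genes in colour and the median of each list as a bar. Knockout peaks at the genes hold 4 to 10 tags and SRF peaks a pileup of 3 to 6, while the wild type CS and MM peaks of Mcl1 stand below the list median at 12 min and above it at 60 min.

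Heights in tags within the wild type lists placed the genes differently at the 2 times of heat shock. At 12 min the CS peaks of Mcl1, with 39 and 43 tags, stood below the list median of 67, and its MM peak, with 22, below the median of 38. At 60 min the CS peaks of Mcl1 and Ier2, with 130 and 100 tags, stood above the median of 65, and all 4 MM peaks, with 54 to 103 tags, above the median of 36. The fold enrichment of the Mcl1 peaks inside the gene changed little. With CS it was 19.5 at 12 min (rank 1137 of 1781) and 19.2 at 60 min (rank 3817 of 4773). With MM it was 13.21 (rank 1147 of 1927) and 13.45 (rank 3504 of 4614). The 60 min libraries were the shallower ones, with 19.6 against 26.3 M tags for CS and 14.0 against 17.7 M for MM. The SRF peaks of the genes had a pileup of 3 before heat shock, 4 to 6 at 12 min and 4 at 60 min. Their list medians were 3, 4 and 4.

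Both factors were found at few genes, as only 99 (0.458%) had an SRF peak at any time. Over all times, 51 protein-coding genes (0.236%) had both an SRF peak and a shared CS and MM region within 10 kb, and Mcl1 was the one among the 7. These were 51 of the 99 genes with SRF, where 11.8% of all genes had a shared region. Counting any CS or MM peak, 62 genes (0.287%) had both, Egr3 and Mcl1 among them. These were 62 of the 99, where 20.2% of all genes had such a peak. The shares were not tested. Egr1, with SRF at every time, had no wild type CS or MM peak within 10 kb at any of them, and Ier2, with the strongest shared region by p-value, had no SRF peak.

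The 7 genes were set beside 76 other genes, in 6 lists of related genes of which the first 4 also hold the 7 genes themselves. The lists of immediate early genes and of actin and contractile genes were drawn up as SRF targets. All lists were chosen with earlier results of these data known, so the counts describe them and are not independent evidence. Of the 76, 8 (10.5%) had an SRF peak at some time, against 0.458% of all genes. In unheated cells it was 1 gene, against 0.194%, at 12 min 6, against 0.254%, and at 60 min 1, against 0.0878%, and none had a peak at more than 1 time. A shared CS and MM region was found at 21 of the 76 (27.6%) at some time, against 11.8% of all genes: 0 in unheated cells (0.532% of all genes), 17 at 12 min (5.33%) and 19 at 60 min (11.2%).

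Beside the counts that follow, 0.458% of all genes had an SRF peak and 11.8% a shared region at some time. Among genes for SRF and its cofactors, Srf included, 0 of 7 had an SRF peak. Elk3, a ternary complex factor, had a shared region at 60 min, of 38 CS and 28 MM tags at 768 bp. Of 6 genes for EGR proteins and their corepressors, SRF was at Egr1 and Egr3 only, and none had a shared region. In the IER family of 5, SRF was at Ier3 only, while shared regions were at Ier2, Ier5 and Ier5l. Ier5, a heat-inducible regulator that binds phosphatase PP2A, had a region of 52 CS and 28 MM tags at 2552 bp at 12 min, a second of 33 and 16 tags at 5393 bp, and one of 69 and 29 tags at 2527 bp at 60 min. Ier5l had one at 12 min, of 122 CS and 99 MM tags, 267 bp from the gene. Among 12 relatives and regulators of MCL1, SRF was at Mcl1 only, while shared regions were at Mcl1, at Bcl2l1, which encodes the anti-apoptotic BCL-XL, and near Bcl2a1d, where Mthfsl was closer.

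Of 30 other immediate early genes, 3 had an SRF peak, against 0.458% of all genes, each at another time: Trib1, a pseudokinase gene, before heat shock (pileup 3, 78 bp from the gene), Nr4a1, an orphan nuclear receptor gene, at 12 min (5), and Npas4, an activity-induced factor gene, at 60 min (3). Shared regions were at 11 genes of that list at some time, against 11.8% of all genes: Fos, Jun, Jund, Atf3, Maff, Arc, Ccn1, Dusp1, Npas4, Nr4a2 and Trib1. Jun had 183 CS and 100 MM tags at 12 min and 293 and 235 at 60 min, 95 and 100 bp from the gene. At Fos the region lay at the edge of the window, 9688 bp away at 12 min. Of 23 actin and contractile genes, 5 had an SRF peak, all at 12 min, against 0.254% of all genes at that time: Actg1, Cfl1, Tpm1 and Wdr1, with a pileup of 5 each, and Myh9, with 2. The peak of Cfl1, the gene of the actin-severing protein cofilin, was closer to Mus81. Shared regions were at Actb, Cald1, Fhl2, Myh9 and Wdr1, at both 12 and 60 min, against 4.75% of all genes at both times. Myh9, Npas4, Trib1 and Wdr1 had SRF and a shared region at some time, as Mcl1 did, against 0.236% of all genes. Among them only the SRF peaks of Wdr1 and Mcl1 passed a q-value of 0.05. The authors' -log10 q was 4.69 for Wdr1 and 3.04 for Mcl1, against 0 for Myh9, 0.34 for Npas4 and 0.86 for Trib1.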

How the data were processed

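ChIP-seq peak lists of HSF1-/- MEFs (6 lists) and wild type MEFs (9 lists) were analysed. The other 18 samples, 12 PRO-seq (nascent RNA) and 6 IgG or input libraries, were not analysed here. The genome build was mm10, per the submitters' processing notes. For the aligner, the sources used here give no name.

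Per the file headers, the authors ran MACS 1.4.2 on the wild type CS and MM libraries, each a merge of 2 replicates, with IgG as control, a p cutoff of 1e-04 and at most 1 tag per position. Knockout peaks were called with the same version and cutoff with no control library, from a local background of 10000 bp, per the file headers, so the genotypes are not on one scale. For SRF the file headers give MACS 2.0.9 with an IgG control. Each CS or MM peak has a tag count, a score (minus 10 times log10 p), a fold enrichment (ratio) and, with a control, a false discovery rate in percent, as the authors deposited them. SRF peaks come with the deposited pileup (signal), fold enrichment, and p-value and q-value on the -log10 scale.

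A peak was given to a gene by its summit, within the gene or 10 kb of it, with gene ends and promoters from RefSeq tables of GRCm38.p6. The gene table gives no strand. No test was made, and each count was set beside the same count over all protein-coding genes. All 7 genes were named with every peak, as were the genes of the 6 wider lists with an SRF peak or a shared region, the neighbours nearer to a peak, and 5 chaperone genes. The 7 genes, the lists and the settings were chosen with earlier results of these data known. Windows of 1, 5, 20 and 50 kb, stricter p, q and false discovery limits and overlap rules were tried as alternatives. Overlap and distance counting was tested on simulated data. Python 3.11.15, pandas 2.3.3, numpy 2.4.6, scipy 1.17.1 and matplotlib 3.10.9 were used.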

Additional observations from a re-analysis of the deposited data

How the results depend on the processing

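No paired analysis was possible because there was 1 list for each genotype, antibody and time and no result came from a test. Of 54 alternatives for 9 counts, 38 stayed within 1.5 times the reported count and 16 moved beyond it, 12 downwards and 4 upwards. With a window of 1 kb the genes with an SRF peak were 2 in place of 4, those with a CS peak 1 in place of 2, those with a shared region 1 in place of 2 (Mcl1), and those with a knockout peak 2 in place of 4. With a window of 50 kb all 7 had a knockout peak and 47 wider genes a shared region in place of 21, and with 20 kb 32 did. At a p of 1e-10 or less 1 gene, Ier2, had a CS peak, an MM peak and a shared region, 0 had a knockout peak, and 13 wider genes had a shared region. Where both knockout antibodies had to overlap, 1 gene, Ier3, was left. At a q-value of 0.05 or less 5 wider genes had an SRF peak in place of 8, namely Actg1, Cfl1, Nr4a1, Tpm1 and Wdr1. Of the 7 genes 0 kept an SRF peak at that limit in unheated cells, 3 at 12 min and 1 at 60 min. At a false discovery rate of 5% or less the shared region of Mcl1 at 12 min was lost and those of Mcl1 and Ier2 at 60 min were kept. Kept SRF peaks were 2 in place of 5 when 50% of both had to overlap. Within 500 bp 1 wild type peak had a knockout peak, against 0 that overlapped one. SRF pileups of 3 to 6 tags limit every statement on SRF peaks lost or gained over time.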

Other observations

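Beyond the 10 kb window, Egr3 had a shared CS and MM region in wild type MEFs inside its neighbour Pebp4, 48657 bp from Egr3 at 12 min, with 85 CS and 38 MM tags, and 48635 bp away at 60 min, with 169 CS and 87 MM tags. At 60 min this region lay on chromosome 14, 70027854 to 70029224, and was taller by CS tags than any peak of the same list within 10 kb of the 7 genes. Mcl1 had one at 60 min with 75 CS and 31 MM tags, 31642 bp away and nearer to Adamtsl4 (6894 bp).

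A small knockout peak inside Bin3, 28411 to 28422 bp from Egr3, was called in HSF1-/- MEFs with CS at all 3 times, with 7, 4 and 9 tags before heat shock and at 12 and 60 min, and with MM at 12 min, with 6 tags. No knockout peak within 10 kb of the 7 genes was called at one place in as many lists.

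The nearest single-antibody wild type peaks outside the window were both of 12 min. An MM peak with 45 tags lay 18433 bp from Ier3 and 151 bp from Mdc1, with a false discovery rate of 30.3%. A CS peak with 37 tags lay 20101 bp from Egr3 in Pebp4, with a false discovery rate of 24.0%.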
